A study of Mus musculus with 4 samples.

Results

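Medullary thymic epithelial cells that carry Aire and Fezf2 transcripts were examined in single-cell RNA-seq data of the mouse thymus. A cell was selected when it had at least 1 Epcam UMI (a unique molecular identifier, 1 per captured transcript), at least 2 UMIs of Aire and Fezf2 combined, and none of Cd3e, Pecam1 or Pdgfra, which mark T cells, endothelium and fibroblasts. Cells had to have over 1000 detected genes, with mitochondrial transcripts under 20% of UMIs. Of 10245 such cells 290 were selected, out of 2483 Epcam-positive cells that lacked the 3 excluded genes. The members were thus chosen by their Aire, Fezf2 and Epcam UMIs, and the levels of these genes in them are given as a description only. The comparison population was the 2090 Epcam-positive cells of the same libraries that passed the same limits and had no UMI of Aire or Fezf2, called other Epcam cells here.

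Cells came from CD45- thymic stroma of untreated C57BL/6 mice that were 6 months old, in 4 libraries. Both control libraries (WT 1 and WT 2) were labelled Foxn1LacZ mock with a wild type genotype, and both mutant libraries (Z/Z 1 and Z/Z 2) were labelled homozygous LacZ. The LacZ allele is known to lower Foxn1 after birth, the transcription factor that directs the identity of thymic epithelium. Per the protocol, each preparation joined 10 to 15 thymi, which were digested and depleted of CD45-positive cells with beads before a flow sort, so the shares of cell types depend on digestion and sorting. The labels give the sex as male in one field and female in another, and do not say whether the libraries of a genotype came from separate pools, so p-values measure only the spread between these libraries, which may be technical.

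The medulla of the thymus tests developing T cells against the body's own proteins. Its epithelial cells transcribe a great number of genes that otherwise belong to single organs such as pancreas, liver, gut or skin, and they load the products on MHC molecules. Aire and Fezf2 are transcription regulators that drive separate sets of these tissue-restricted genes, and people or mice without Aire develop autoimmunity. Maturation of the Aire-positive cells depends on the receptors RANK and CD40, which signal to NF-kB, and mature cells carry high MHC class II with the costimulators CD80 and CD86.

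WT 1 held 158 of the selected cells and WT 2 held 26, while Z/Z 1 held 52 and Z/Z 2 held 54. Their median depth was 26136, 34138.5, 24042.5 and 29720.5 UMIs, in the order WT 1, WT 2, Z/Z 1, Z/Z 2, against 11213.5, 11299.5, 7490.5 and 7440.5 in the other Epcam cells. The selected cells were therefore deeper in every library, and the main comparisons of shares of cells are also given with each cell thinned to 4000 UMIs. Over the whole series the libraries held 8468086 to 50705511 UMIs in called cells. Libraries of the same genotype shared 202 (WT) and 249 (Z/Z) called barcodes, against 0 to 6 across genotypes, and the smaller copy held a median of 3.24% and 1.78% of the UMIs of the larger. Among the selected cells 59 had a barcode that was called in another library as well, and these were 15 cells of WT 1, 20 of the 26 of WT 2, 20 of Z/Z 1 and 4 of Z/Z 2. Only 4 of the 59 were not the larger copy. Counts of called genes, shares of Epcam cells and some single genes are also given without these cells. Other values of WT 2 are given only with them and rest largely on them.

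Aire lies on chromosome 10 from 78030022 to 78043610 on the minus strand (GRCm38), and Fezf2 on chromosome 14 from 12342094 to 12348189, also on the minus strand. Of the 290 cells, 193 had UMIs of both genes, 42 had Aire alone and 55 had Fezf2 alone. The median Aire count per cell was 4.5, 6.5, 8 and 8 UMIs, in the order given above, and the highest cell had 87. The median Fezf2 count was 4, 8.5, 3 and 5.5 UMIs, in the same order, and the highest cell had 93. Most members were far from the threshold, with 212 cells at 5 or more UMIs of both genes combined and 37 cells at exactly 2. Just outside it lay 103 Epcam-positive cells with 1 UMI. In these the summed Cd80 level was 36.1 CPM (UMIs of a gene scaled to the UMI total of the cells summed), against 175 CPM at 2 UMIs, 189 CPM at 3 to 4 and 390 CPM at 5 or more. Cd40 had 22.7, 65.8, 99.1 and 158 CPM in the same order. The cells just inside the threshold also had fewer UMIs in all, with a median of 12500 at 2 UMIs and 31409 at 5 or more.

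The label was checked against Cd80 and Cd40, which the rule did not use. Cd80 (chromosome 16, 38455561 to 38496335, plus strand) encodes a ligand that costimulates T cells, and Cd40 (chromosome 2, 165055627 to 165072948, plus strand) the receptor through which T cells stimulate medullary epithelium. Cd80 UMIs were found in 79.7%, 84.6%, 75% and 83.3% of selected cells (WT libraries first), against 17.6%, 14.8%, 1.5% and 3.5% of other Epcam cells. Cd40 UMIs were found in 74.1%, 73.1%, 67.3% and 75.9%, against 12.9%, 11.1%, 4.88% and 9.125%. With each cell thinned to 4000 UMIs, Cd80 was found in 54.7%, 72%, 51.9% and 58.5% of selected and 9.70%, 7.32%, 1.21% and 1.94% of other cells, and Cd40 in 38.5%, 24%, 34.6% and 43.4% against 9.70%, 2.44%, 2.43% and 3.39%. Both markers were present in 190 of the 290 cells and neither in 36. The share of cells with either marker was higher in the selected cells of every library. Cells with Pdgfra and neither Epcam nor Pecam1, which are fibroblast-like, were measured for comparison. They had Cd80 UMIs in 1.25% to 3.73% of cells and Cd40 UMIs in 4.17% to 4.98%, at median depths of 10758 to 14893 UMIs. That Cd40 range includes the 4.88% of other Epcam cells of Z/Z 1, and it is not taken as a background rate. Of the 2126 fibroblast-like cells, 1 met the threshold of 2 Aire and Fezf2 UMIs and 36 had any UMI of them.

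The selected cells made up a far larger share of Epcam cells in WT than in Z/Z libraries. WT 1 had 43.6% (95% Clopper-Pearson interval 38.5% to 48.9%, which covers counting error only) and WT 2 had 28.9% (19.8% to 39.4%). Z/Z 1 had 4.56% (interval 3.42% to 5.93%), and Z/Z 2 had 6.07% (interval 4.59% to 7.84%). The groups did not overlap, with means of 36.3% ± 10.4 (SD, n = 2) and 5.31% ± 1.07 (SD, n = 2). The difference of -31.0 percentage points had an exact permutation p of 0.333 (two-sided), which is the smallest value that 2 against 2 libraries can give. With every cell thinned to 4000 UMIs before the rule was applied, the shares were 30.3%, 27.8%, 3.24% and 5.44%. Without barcodes called in more than one library they were 43.7%, 12.8%, 3.06% and 5.88%, so the value of WT 2 moved most and the groups still did not overlap. The denominator differed too, since Z/Z libraries held 1141 and 890 Epcam cells and WT libraries 362 and 90. The number of selected cells themselves did not separate the genotypes, because WT 2 had the fewest.

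**Figure D1:**
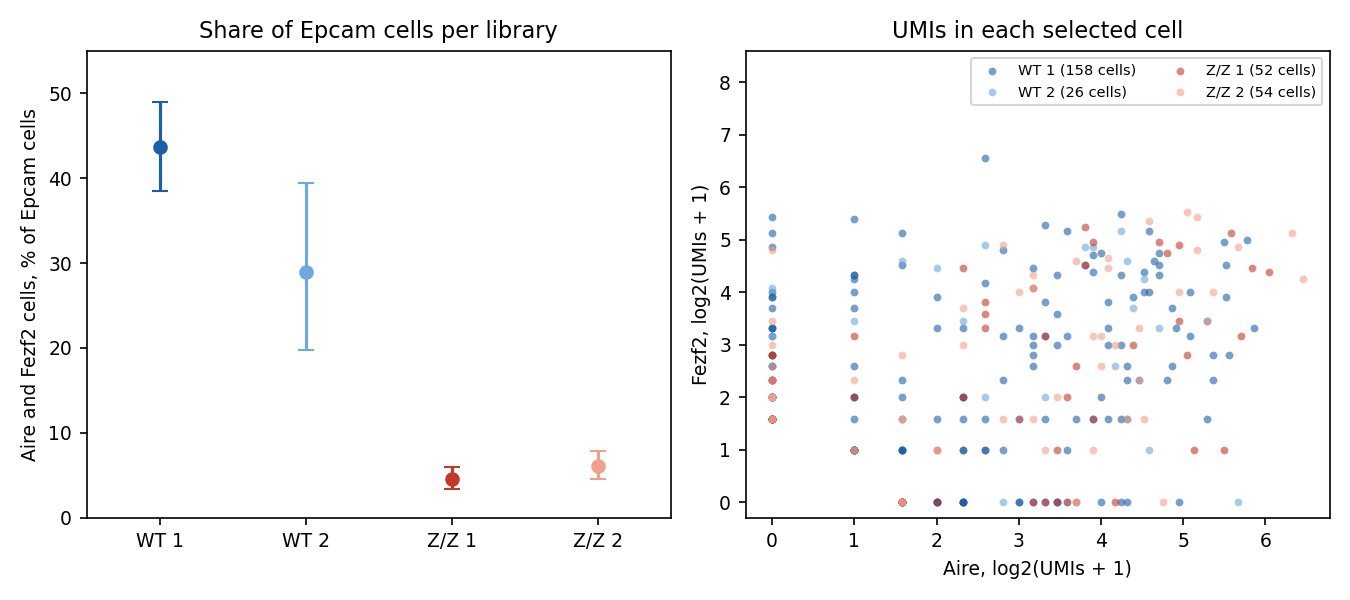
Left, the selected cells as a percent of Epcam cells in each library (points) with 95% exact binomial intervals (bars); both WT libraries lie above 28% and both Z/Z libraries below 7%. Right, Aire and Fezf2 UMIs in each of the 290 selected cells on log2(UMIs + 1) axes, coloured by library, where the points of all 4 libraries lie over the same range.

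The next comparison asked what else was transcribed in the selected cells, against the other Epcam cells of the same library. UMIs were summed per library and class, and tested by edgeR's quasi-likelihood F test with the library as a block and Benjamini-Hochberg adjustment over all genes tested. The selected cells had higher levels of 2299 genes (18.4%) and lower levels of 2174 (17.4%), out of 12479 tested. In cells thinned to 4000 UMIs the counts were 1043 and 982 of 6251 genes tested. They were 1484 and 1280 when Z/Z 1 was left out, and 1411 and 1213 when Z/Z 2 was. Without barcodes called in more than one library they were 1221 and 2013, with the median over all genes at -0.27 in place of -0.02. CPM values below are scaled with TMM factors (edgeR's library normalization) and given in the order WT 1, WT 2, Z/Z 1, Z/Z 2, and a log2 fold change is selected over other Epcam cells with its standard error (SE). CPM values of different genes are not compared with each other. A gene near 0 in 1 class could pass edgeR's filter on low counts only through the other class. For such a gene the fold change and adjusted p-value are a description.

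Cd80 had 410.3, 547, 336 and 336 CPM in the selected cells and 37.2, 30.3, 2.79 and 7.19 CPM in the others, a log2 ratio of selected to other cells of 5.00 (SE 0.63, adjusted p = 0.00296 in edgeR). Cd40 had 166, 185, 144 and 159.5 CPM against 27.3, 23.9, 6.61 and 14.8 CPM (3.38, SE 0.34, adjusted p = 0.00164). Neither gene overlapped between the classes, and the gap was widest in the Z/Z libraries, where the other Epcam cells were lowest. Foxn1 had 100.1, 90.7, 90.9 and 107 CPM against 72.2, 36.7, 52.8 and 70.4 CPM (0.76, SE 0.18, adjusted p = 0.0208). It was higher in the selected cells of all 4 libraries, a call that was lost when Z/Z 1 (0.74) or Z/Z 2 (0.84) was left out, without shared barcodes (0.76) and without the filter on low counts (0.63).

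Signalling from RANK, CD40 and the lymphotoxin beta receptor drives the maturation of these cells. Of 22 genes of this pathway that were tested (23 listed), 11 rose and 2 fell, with a median log2 fold change of 1.04 against -0.02 over all genes tested. Tnfrsf11a, which encodes RANK itself, had 362, 332, 574 and 485 CPM against 75.2, 65.4, 26.8 and 28.1 CPM (3.32, SE 0.46, adjusted p = 0.00375 in edgeR). Tnfrsf11b, which encodes osteoprotegerin, the secreted decoy receptor that binds the RANK ligand, had 179, 214, 237 and 183 CPM against 7.29, 11.2, 6.24 and 4.49 CPM (4.95, SE 0.24, adjusted p = 0.0011). Both the receptor and its decoy were thus several-fold higher in every library. Relb and Nfkb2, the subunits of the non-canonical NF-kB branch, rose by 1.36 (SE 0.12) and 1.41 (SE 0.15), and Traf3, an adaptor that restrains that branch, by 1.47 (SE 0.13). The call of Nfkb2 was lost without shared barcodes (1.06, adjusted p = 0.0606 in edgeR). Relb lay at 317 to 341 CPM in the selected cells and 119.6 to 134 CPM in the others. In the opposite direction, Ltbr, the lymphotoxin beta receptor, fell by 1.35 (SE 0.23), from 28.8 to 51.0 CPM in the other cells to 12.0 to 19.9 CPM.

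Of 18 genes for MHC class II and costimulation, 13 rose and 2 fell, with a median of 1.63. Ciita, the master regulator of MHC class II, had 162, 165, 172 and 162 CPM against 75.6, 30.3, 38.9 and 52.7 CPM (1.79, SE 0.25, adjusted p = 0.00368 in edgeR). Its level in the selected cells was almost the same in all 4 libraries. The invariant chain Cd74 had 13617, 17443, 13500.3 and 18756 CPM against 4962, 5255, 4097 and 6526 CPM (1.61, SE 0.18), and H2-Aa, an MHC class II alpha chain, rose by 1.53 (SE 0.15). H2-Oa, part of a complex that restrains peptide loading, rose by 3.25 (SE 0.28). Icosl, the ligand of the T cell costimulator ICOS, had 90.7, 95.6, 171 and 159 CPM against 7.29, 0, 3.91 and 4.36 CPM (4.96, SE 0.47, adjusted p = 0.00154). The genes that fell were Cd274, which encodes the inhibitory ligand PD-L1 (-1.67, SE 0.14), and Ctsl, the protease that cortical epithelium uses to make class II peptides (-2.78, SE 0.31). Cd274 lay at 183 to 416 CPM in the selected cells and 644 to 1157 CPM in the others, with no overlap.

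Of 12 genes for MHC class I and the immunoproteasome, 7 rose and 0 fell, with a median of 0.67. B2m, the light chain of MHC class I, had 4234, 5530.3, 2929.8 and 2917 CPM against 2128, 2682, 1030.1 and 999 CPM (1.27, SE 0.18, adjusted p = 0.00382 in edgeR). Psme1 and Psme2, which form the interferon-inducible proteasome cap, rose by 1.77 (SE 0.14) and 1.88 (SE 0.17). Psmb10, a catalytic subunit of the immunoproteasome, rose by 1.32 (SE 0.23). Each of these genes was higher in the selected cells of all 4 libraries.

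Of 16 chemokines and cytokines tested (20 listed), 8 rose and 1 fell, with a median of 1.02. Il13, a type 2 cytokine, had 128, 232, 53.2 and 102 CPM against 11.9, 1.59, 0.186 and 0.128 CPM (6.07, SE 0.94, adjusted p = 0.00519 in edgeR), and 118 of the 290 cells had a UMI of it. Ccl17, a ligand of CCR4, had 16.4, 103, 82.3 and 38.6 CPM against 0.768, 4.78, 1.21 and 1.92 CPM (4.95, SE 0.39), in 40 cells. Ccl19, a ligand of CCR7 that draws maturing T cells into the medulla, rose by 1.95 (SE 0.24) and was found in 234 cells. Cx3cl1, a membrane-bound chemokine, fell by 1.78 (SE 0.25), from a mean of 83.4 CPM in the other cells to one of 25.9 CPM. Ccl19 lay at 434 to 940.1 CPM in the selected cells.

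Of 22 genes whose products work with Aire, 3 rose and 3 fell, with a median of -0.16, and 16 did not pass the threshold. Sirt1, the deacetylase that acts on Aire, had 418, 461, 326 and 301 CPM against 78.7, 79.7, 47.1 and 47.2 CPM (2.60, SE 0.14, adjusted p = 0.00115 in edgeR). Dnmt3l, a cofactor of DNA methylation, had 26.6, 20.8, 18.0 and 27.0 CPM against 2.30, 1.59, 0 and 0.385 CPM (5.27, SE 0.82, adjusted p = 0.00519). Parp1, which responds to DNA breaks, rose by 1.94 (SE 0.36). Top1, a topoisomerase that Aire engages, fell by 0.84 (SE 0.13), with 224 to 327 CPM in the selected cells and 400.2 to 573 CPM in the others. The share of these genes that rose was lower than the 18.4% of all genes, and the share that fell lower than the 17.4%.

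**Figure D2:**
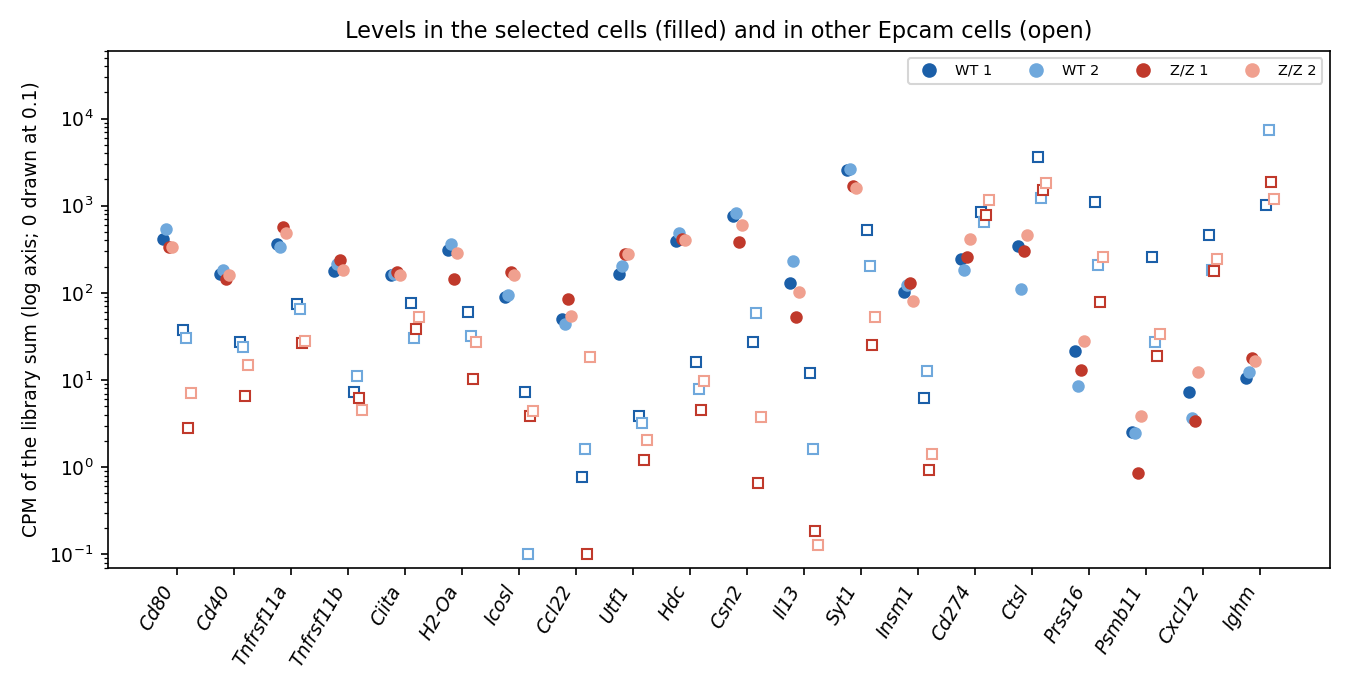
Level of 20 genes in the UMI sums of the selected cells (filled points) and of other Epcam cells (open squares) in each library, in CPM on a log axis with 0 drawn at 0.1. Cd80 to Insm1 are higher in the selected cells of all 4 libraries, and Cd274 to Ighm are lower.

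By the rule for naming genes (largest fold changes among genes with a mean of at least 50 CPM and the same direction in all 4 libraries), the 12 highest were S100a8, Utf1, Fabp6, Il13, Csn2, S100a9, Hal, Tac2, Calca, Kynu, Krt79 and Hdc, with log2 fold changes from 5.55 to 7.69. They include products of several organs. In the other Epcam cells their mean levels ranged from 1.02 (Krt79) to 22.8 CPM (Csn2). Those near 0 there could pass the filter on low counts only through the selected cells, so their ranks and p-values are a description. Utf1, a chromatin protein of pluripotent cells, had 166, 205, 282 and 279 CPM against 3.84, 3.19, 1.21 and 2.05 CPM (6.79, SE 0.45, adjusted p = 0.00127 in edgeR). Hdc, which makes histamine, had 391, 484, 413 and 400.1 CPM against 16.1, 7.97, 4.56 and 9.75 CPM (5.55, SE 0.36, adjusted p = 0.00127). Both genes lay within a narrow range over the selected cells of the 4 libraries. Csn2, the milk protein beta-casein, had 757, 832, 379 and 605 CPM against 27.6, 59.0, 0.652 and 3.72 CPM (6.03, SE 0.95, adjusted p = 0.00544). Calca, the precursor of calcitonin, had 331, 23.3, 117 and 235 CPM against 2.69, 0, 1.40 and 8.85 CPM (5.86, SE 0.46), and Krt79, a keratin of hair follicles and sebaceous glands, had 40.0, 306, 62.6 and 29.6 CPM against 0.384, 1.59, 0.838 and 1.28 CPM (5.82, SE 0.44). Calca and Krt79 differed by more than an order of magnitude among the selected cells of the 4 libraries, unlike Utf1 and Hdc. The calls of S100a9 and Tac2 were lost when a library was left out, which for S100a9 was Z/Z 2 (5.42 without it) and for Tac2 was WT 2 (5.55), Z/Z 1 (5.30) or Z/Z 2 (4.78).

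The 12 lowest were the immunoglobulin genes Ighm, Iglc2 and Iglv1, the plasma cell genes Jchain and Mzb1, and Scn1a, Cxcl12, Grm8, Acss3, Arhgap6, Snhg11 and Frmpd4. Cxcl12, a chemokine of cortical epithelium and stroma, had 7.28, 3.68, 3.43 and 12.2 CPM in the selected cells and 459.8, 185, 176 and 247 CPM in the others (-5.35, SE 0.33, adjusted p = 0.00115 in edgeR). Scn1a, a neuronal sodium channel, had 2.05, 0, 12.0 and 4.50 CPM against 167, 163, 205 and 179 CPM (-5.48, SE 0.54). Both genes were lower in the selected cells of all 4 libraries. Ighm, the heavy chain of IgM, had 10.5, 12.3, 18.0 and 16.7 CPM in the selected cells and 1019, 7381, 1853 and 1200.0 CPM in the others, and in droplets with few UMIs, which hold free RNA, it had 92.1, 306, 854 and 333 CPM (without TMM scaling). Without shared barcodes the differences of Ighm (-1.97, adjusted p = 0.297 in edgeR) and Jchain (-2.26, adjusted p = 0.17) did not pass. Iglc2, Iglv1 and Mzb1 had 0 to 1.23 CPM in the selected cells, at or under 3 UMIs per library, and 10.5 to 687 CPM in the others. The part of free RNA and shared barcodes in these 5 genes was not tested further.

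Tissue-restricted genes were taken from 5 lists (pancreas, liver and plasma, mammary and salivary, gut, and eye and neural genes, 92 genes in all). In the sums, 2 of 3 tested pancreas genes rose and 1 fell, and 5 of 6 liver genes, 1 of 4 mammary and salivary genes, 6 of 12 gut genes and 5 of 7 eye and neural genes rose. Of the mammary and salivary genes 1 fell, and none fell in the other 3 lists. Most of the 92 genes were too sparse to be tested, and a gene that passed the filter on low counts only through the selected cells had to differ, so these counts are a description. Syt1, a calcium sensor of synaptic vesicles, had 2579, 2640.2, 1687 and 1596 CPM against 523, 201, 25.3 and 52.9 CPM (4.26, SE 0.67, adjusted p = 0.00547 in edgeR). Mbp, a protein of myelin, had 203, 234, 154 and 187 CPM against 65.6, 62.2, 47.4 and 59.9 CPM (1.71, SE 0.13, adjusted p = 0.00131). Gad1, the enzyme that makes the transmitter GABA and an antigen of islet cells, had 23.4, 17.2, 26.6 and 14.8 CPM against 0.768, 0, 0.372 and 0.257 CPM (5.68, SE 0.42, adjusted p = 0.00127). Hamp, the iron hormone hepcidin of the liver, had 210.4, 237, 298 and 299 CPM against 20.0, 39.9, 1.12 and 2.82 CPM (5.07, SE 1.05, adjusted p = 0.0129), a call that depended on Z/Z 2 (4.41 without it) and was lost when cells with 1 Aire or Fezf2 UMI joined the comparison cells (4.41).

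At the level of single cells, the antigen genes ranged from nearly ubiquitous to held by 1 cell. UMIs were found for 88 of the 92 genes in the selected cells, and 81 were found in a larger share of selected than of other Epcam cells. The median gene was found in 4.14% of the selected cells (0.383% of the others), 65 genes were found in under 10% of them and 23 in 10% or more. With each cell thinned to 4000 UMIs, 76 of the genes had a UMI in the selected cells, 70 were found in a larger share of them than of the others, and the median gene was found in 2.16% against 0.235%. For the median gene, a single cell held 44.4% of all its UMIs, and for 34 genes 1 cell held more than 50%. This share is high by count alone for a gene with few UMIs, such as Ahsg and Mup5 with 1 UMI each and Ins1 with 3. Insulin (Ins2) was found in 14 cells, with 47.4% of its UMIs in 1 of them, somatostatin (Sst) in 4 cells with 91.3% in 1, and albumin (Alb) in 3 cells with 93.5% in 1. At the other end, Syt1 was found in 264 cells, Mbp in 230, Csn2 in 189, Reg3g (an antibacterial lectin of the gut) in 151 and Hamp in 100, and the highest cell held 5.58% of the Syt1 UMIs and 6.27% of the Csn2 UMIs. The genes of RANK signalling (median of 3.5% of UMIs in the highest cell), MHC class II (3.32%) and MHC class I (2.63%) were spread over many cells instead. The lists were not matched for UMI totals.

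**Figure D3:**
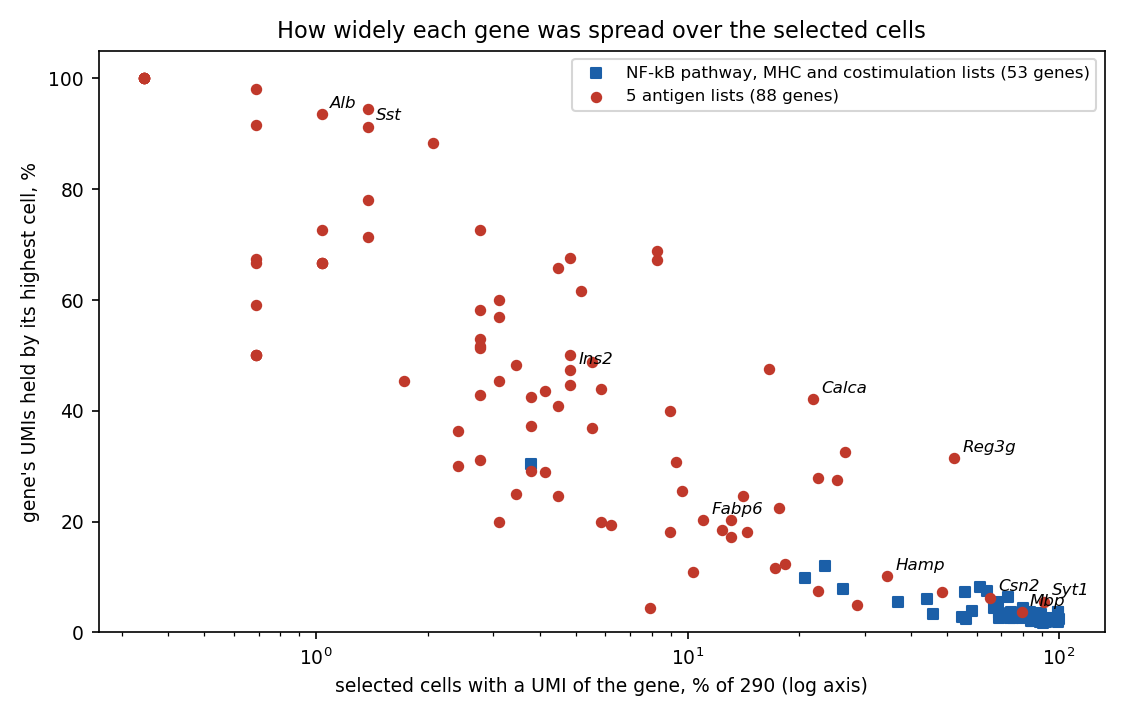
Each point is a gene, placed by the share of the 290 selected cells with a UMI of it (log axis, percent) and by the share of its UMIs held by its highest cell (percent). Most of the 88 antigen genes (red) lie at the upper left, found in under 10% of cells, while the signalling, MHC and costimulation genes (blue) lie at the lower right, with Csn2, Syt1 and Mbp among them.

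At equal depth the selected cells held more antigen genes, while the difference in all genes detected changed sign between libraries. With each cell thinned to 4000 UMIs, which left out 12 selected and 389 other Epcam cells below that depth, the mean number of the 92 antigen genes per cell was 4.76, 4.84, 3.96 and 4.98 in the selected cells, in the order WT 1, WT 2, Z/Z 1, Z/Z 2. In the other Epcam cells it was 1.66, 1.05, 0.694 and 0.768, so the classes did not overlap. No antigen gene was detected in 2.70%, 4%, 1.92% and 11.3% of selected cells, against 35.8%, 58.5%, 52.6% and 50% of the others. The median number of all genes detected at that depth was 1796, 1806, 1808 and 1828 in the selected cells and 1793, 1765, 1820 and 1829 in the others. The difference between the classes was 7.75 ± 23.1 genes (SD, n = 4 libraries) and was not larger than its spread (exact paired permutation p = 0.75, two-sided, with 0.125 the smallest possible). At 8000 UMIs it was -2 ± 61.1 genes. By library it was 3, 41, -12 and -1 genes at 4000 UMIs and 21, 71, -31 and -69 at 8000 UMIs. It was thus positive in both WT and negative in both Z/Z libraries, and this split was not tested. Without thinning the medians were 5266, 5735, 5171.5 and 5780 genes in the selected cells and 3321.5, 3399.5, 2779 and 2783.5 in the others. Between genotypes, the medians of the selected cells differed by 17 genes (exact permutation p = 0.333, the smallest possible), and by -4 genes at 8000 UMIs.

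Medullary cells past the Aire stage take on programs of peripheral cell types, and these are called mimetic cells. Of 14 regulators of such lineages that were tested (22 listed), 9 rose and 0 fell in the selected cells. Regulators that are near 0 in the other Epcam cells could pass the filter on low counts only through the selected cells, so this count is a description. Cdx1, a homeobox gene of the intestine, had 189, 188, 268 and 188 CPM against 26.1, 22.3, 1.30 and 2.82 CPM (4.86, SE 0.94, adjusted p = 0.0103 in edgeR), and 217 of the 290 cells had a UMI of it. Insm1, of neuroendocrine cells, had 103, 124, 129 and 81.7 CPM against 6.14, 12.8, 0.931 and 1.41 CPM (5.15, SE 0.66), in 147 cells. Both genes were thus present in over 50% of the selected cells at full depth. Among cells thinned to 4000 UMIs, Cdx1 was found in 41.0% of selected and 1.70% of other cells, and Insm1 in 22.3% against 0.529%. These 2 genes do not stand for the list. At full depth its median regulator was found in 17.6% of the selected cells, against 4.14% for the median antigen gene.

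Of 14 cell cycle genes tested (20 listed), 7 rose and 0 fell, with a median of 1.95. Mki67 had 48.2, 79.7, 71.2 and 61.8 CPM against 10.4, 7.97, 7.26 and 6.80 CPM (2.97, SE 0.26, adjusted p = 0.00148 in edgeR), and 67 of the 290 cells had a UMI of it. Top2a, the topoisomerase that resolves replicated chromosomes, had 68.9, 162, 221 and 129.9 CPM against 11.1, 14.3, 7.45 and 7.96 CPM (3.82, SE 0.40), in 83 cells. Both were higher in the selected cells of all 4 libraries. At 4000 UMIs per cell, any of the 20 cell cycle genes was detected in 64.2%, 84%, 71.2% and 69.8% of selected cells. In the others it was 63.4%, 56.1%, 54.9% and 57.9%, so the shares were nearly equal in WT 1 and higher in the selected cells of the other 3 libraries. These are not shares of dividing cells. Cdkn1a alone was found in 39.2% of selected and 31.6% of other cells, while Mki67 was found in 10.1% against 2.06%. The call of Mki67 was lost without shared barcodes (1.48, adjusted p = 0.104 in edgeR).

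Most named genes of cortical epithelium were lower. Of 9 Foxn1 and cortical target genes tested, 1 rose (Foxn1, given above) and 5 fell, with a median of -1.26. Psmb11, the proteasome subunit of the cortex, had 2.50, 2.45, 0.857 and 3.86 CPM against 258, 27.1, 18.9 and 33.6 CPM (-4.99, SE 0.71, adjusted p = 0.0041 in edgeR). Prss16, a serine protease of the cortex, had 21.4, 8.58, 12.9 and 28.3 CPM against 1099.6, 209, 79.3 and 258 CPM (-4.08, SE 0.56). Kitl, the ligand of the receptor Kit on early thymocytes, fell by 2.43 (SE 0.21), and Ly75, an endocytic receptor of the cortex, by 1.26 (SE 0.24). All 4 were lower in the selected cells of every library. Tbata, of the same list, differed: at equal depth it was found in 50.7%, 44%, 26.9% and 37.7% of selected cells. In the other Epcam cells it was found in 25.4%, 17.1%, 3.31% and 8.71%. Ccl25 was then found in a larger share of selected cells in both Z/Z libraries and a smaller one in both WT libraries. In Z/Z 1 alone the summed list was higher in the selected cells (794 against 678 CPM, without TMM scaling). Of 8 tuft cell markers tested, 0 rose and 2 fell, with a median of -2.67, and Dclk1, a kinase of tuft cells, fell by 2.12 (SE 0.41). Of 16 genes of basal and mTEC1 cells, 4 rose and 3 fell, shares close to the 18.4% and 17.4% of all genes. Those that fell include Pdpn, the membrane protein podoplanin (-3.00, SE 0.45), and Trp63, a regulator of epithelial progenitors (-1.25, SE 0.19), and those that rose include Itgb8, an integrin that activates TGF-beta (3.03, SE 0.51). Of 8 markers of age-associated epithelial cells, 1 rose and 2 fell, and such small counts do not set the tuft or the age-associated list apart from all genes.

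**Figure D4:**
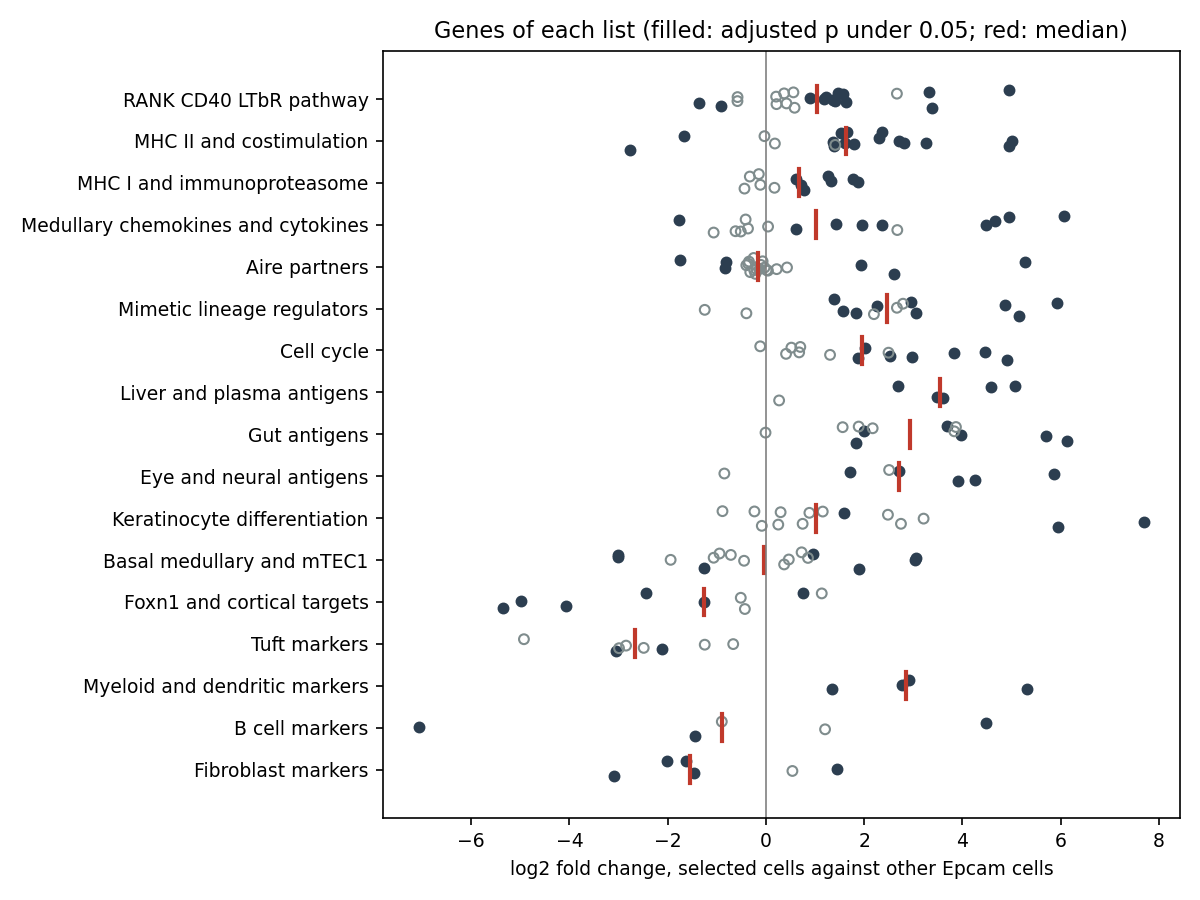
Each point is a tested gene of the list named at the left, placed by its log2 fold change between the selected and the other Epcam cells; filled points have an adjusted p under 0.05 in edgeR and red bars mark list medians. Medians lie above 0 for the NF-kB pathway, MHC, antigen, mimetic and cell cycle lists, and below 0 for the cortical target, tuft, B cell and fibroblast lists.

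Markers of haematopoietic cells were measured alongside. Of 12 myeloid and dendritic markers, 10 had a UMI in the selected cells, with Itgax and Siglech at 0, while the dendritic markers Flt3, Xcr1 and Clec9a were found in 34, 9 and 2 cells. Their summed level (CPM without TMM scaling) was 517, 1222, 548 and 538 CPM in the selected cells, 30.7, 45.5, 17.3 and 38.8 CPM in the other Epcam cells and 121, 109, 59.8 and 82.6 CPM in droplets with few UMIs. All 4 tested markers of the list rose, but the call of Cd68 was lost when WT 1 (1.33), Z/Z 1 (1.23) or Z/Z 2 (1.36) was left out and without the filter on low counts (1.21). Lyz2, which encodes lysozyme, made up most of the sum with 417, 1000.2, 486 and 466 CPM against 8.83, 15.9, 9.40 and 23.7 CPM (5.31, SE 0.33, adjusted p = 0.00115 in edgeR), in 149 cells. Csf1r (2.76, SE 0.50) and Fcer1g (2.92, SE 0.37) rose as well, and Ptprc, which encodes CD45, had a UMI in 34 cells. For T cell markers the summed level was 61.0, 98.7, 77.3 and 81.0 CPM in the selected cells and 280 to 4828 CPM in droplets with few UMIs. In the other Epcam cells it was 73.6, 205, 20.3 and 137 CPM, so only in Z/Z 1 were the selected cells higher. Both classes had to lack Cd3e UMIs, so a low level is in part set by the rule. For B cell markers the summed level was 106, 148, 162 and 118 CPM, against 1115, 7253, 2131 and 1432 CPM in the other Epcam cells. Of 5 B cell markers tested, 1 rose and 2 fell, with a median of -0.90. Pax5, the B cell regulator, was the 1 that rose, from 0.128 to 3.19 CPM in the other cells to 11 to 18 CPM (4.47, SE 0.73). The part of cell pairs in these values was not tested. With the cells of highest doublet score left out (24 of the 290), Lyz2, Csf1r and Fcer1g kept an adjusted p under 0.05 in edgeR, and Pax5 was below the filter on low counts and was not tested. Without the exclusion of Cd3e, Pecam1 and Pdgfra, 469 cells would have met the rule, 142 with Pecam1, 44 with Cd3e and 22 with Pdgfra, and with these cells included the share of Epcam cells differed by -31.3 percentage points between genotypes.

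Within the selected cells, Z/Z and WT were compared on the UMI sums of the 4 libraries (4876865, 908141, 1349548 and 1814864 UMIs). The question is whether lowering Foxn1 changes what an Aire and Fezf2 cell transcribes, apart from how many such cells there are. Of 11674 genes tested by edgeR's quasi-likelihood F test, 0 passed an adjusted p of 0.05 (0.0%), and the lowest adjusted p was 0.193. At an unadjusted p under 0.05 there were 1191 genes, 473 higher in Z/Z (4.05%) and 718 lower (6.15%). Without shared barcodes, which account for 20 of the 26 cells of WT 2, 304 of 10114 genes tested reached that value and 0 passed the adjusted threshold. DESeq2 called 29 genes higher and 58 lower, 87 of 9707 tested (0.896%), and edgeR without a filter on low counts called 318 higher and 495 lower. In 96 of these 813 genes 1 group was at 0, and 598 had also been tested with the filter. Values in parentheses below are log2 fold changes with Z/Z in the numerator, on the scale of this fit. None passed the threshold in edgeR with the filter. A lack of overlap between 2 and 2 libraries cannot reach an exact permutation p below 0.333. The share of all genes without overlap was not counted, so a lack of overlap is given as a description.

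Foxn1 itself, the gene altered in the mutants, had 102, 94.1, 91.8 and 108 CPM in the order WT 1, WT 2, Z/Z 1, Z/Z 2, and the groups overlapped (0.02, SE 0.23, adjusted p = 0.984 in edgeR). Its sign changed between settings (-0.17 without shared barcodes, and -0.0091 or -0.10 when WT 2 or Z/Z 2 was left out). The sources used here do not say which part of the transcript the LacZ allele leaves, and these counts therefore do not check the genotype. Aire had 368, 354, 587 and 501 CPM and Fezf2 had 339, 366, 367 and 377 CPM, which are given as a description, since both were used for selection. Cd80 had 419, 567, 339.7 and 339 CPM (-0.54, SE 0.23, adjusted p = 0.504) and Cd40 had 170.1, 192, 146 and 161 CPM (-0.24, SE 0.21). Both were lower in each Z/Z library than in each WT library, by less than the test could separate, and without shared barcodes the value of Cd40 was 0.11.

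Of the pathway genes, Tnfrsf11a had 369.7, 345, 581 and 488 CPM (0.58, SE 0.21, unadjusted p = 0.0323 and adjusted p = 0.447 in edgeR). Icosl had 92.7, 99.2, 173 and 160.0 CPM (0.80, SE 0.22). Both were higher in each Z/Z library, opposite in direction to Cd80. Over the RANK pathway list, 11 of 22 genes were higher and 11 lower, against 49.97% higher over all genes tested. Among MHC class II genes 12 of 18 were lower (median -0.12), and H2-Ob, the partner chain of H2-Oa, had 61.3, 69.9, 19.9 and 25.3 CPM (-1.52, SE 0.29, adjusted p = 0.366). Among MHC class I and immunoproteasome genes 11 of 12 were lower (median -0.36), with B2m at 4326, 5738, 2961 and 2937 CPM (-0.77, SE 0.23, adjusted p = 0.421). Among the chemokines and cytokines, Cxcl10 (872, 885, 1582 and 1164 CPM) and Il7 (79.9, 76.3, 122 and 159 CPM), the growth factor of early T cells, were higher in each Z/Z library. Ccl19 (718, 975, 558 and 437 CPM) and Il15 (122, 148, 61.5 and 89.4 CPM) were lower. None of these passed the adjusted threshold.

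Genes of keratinocyte differentiation were the list with the largest median difference among those tested with 10 or more genes, with 13 of 15 tested genes lower in Z/Z, a median of -1.62 and 7 genes at an unadjusted p under 0.05. The suprabasal keratin Krt10 had 125, 63.6, 7.80 and 8.42 CPM (-3.55, SE 0.45, adjusted p = 0.321 in edgeR). Filaggrin (Flg), the protein that bundles keratin in cornified cells, had 131, 96.7, 2.60 and 12.3 CPM (-3.86, SE 0.60). Sbsn, which encodes suprabasin, had 269, 97.9, 13.0 and 13.0 CPM (-3.84, SE 0.56), and Spink5, a protease inhibitor of the skin barrier, had 276, 67.4, 18.2 and 11 CPM (-3.60, SE 0.75). The groups did not overlap for any of the 4, and DESeq2 called all of them (adjusted p from 1.7e-07 to 0.00013). Few cells carried these transcripts. Krt10 was found in 36, 5, 7 and 9 cells, Flg in 10, 2, 2 and 1, Sbsn in 44, 7, 5 and 8, and Spink5 in 28, 3, 5 and 7. With the highest cell of each library left out (CPM without TMM scaling), Krt10 had 45.8, 5.25, 6.07 and 6.66 CPM and Spink5 had 191, 3.94, 10.4 and 6.45 CPM, so that WT 2 lay below both Z/Z libraries. Also without the highest cell of each library, Flg had 30.4, 3.93, 0.857 and 0 CPM and Sbsn 117, 10.5, 7.74 and 4.66 CPM, with no overlap. In a separate fit of cells with at least 2 Aire UMIs, the log2 fold change of Spink5 was 0.31. The summed list had 3025, 1912, 1533 and 1074 CPM, and without S100a8, S100a9 and the highest cell of each library it had 1189, 420.0, 230 and 494 CPM, where the groups overlapped.

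Of the other genes with the lowest unadjusted p, Slc22a22 and Krt23 were found in only 51 and 53 of the selected cells, and without the highest cell of each library Krt23 had 52.3, 10.5, 3.48 and 11 CPM, where the groups overlapped. The genes that follow were found in more cells. Me1, the malic enzyme that supplies NADPH, had 269, 295, 73.7 and 49.9 CPM (-2.19, SE 0.27, adjusted p = 0.321 in edgeR and 1.21e-06 in DESeq2), and was found in 117, 18, 22 and 31 cells. Defb6, a beta-defensin, had 269, 318, 37.3 and 54.4 CPM (-2.67, SE 0.28), in 73, 14, 8 and 19 cells. Tafa1, a secreted chemokine-like protein of the brain, had 189.8, 339.6, 24.3 and 16.8 CPM (-3.68, SE 0.41), in 41, 10, 9 and 9 cells. Without the highest cell of each library Me1 had 247, 251, 60.4 and 48.0 CPM, Defb6 had 223, 69.6, 21.6 and 32.4 CPM and Tafa1 had 154, 232, 18.6 and 12.3 CPM. All 3 thus stayed lower in each Z/Z library, although Defb6 in WT 2 rested largely on 1 cell. Skint3, a gene of skin and thymus epithelium, had 318, 610.5, 68.5 and 51.8 CPM (-2.94, SE 0.39). In the other direction Mdk, the growth factor midkine, had 129.9, 150.1, 438 and 348 CPM (1.49, SE 0.23, adjusted p = 0.321 in edgeR and 0.000292 in DESeq2), in 71, 13, 32 and 38 cells. Ier3, an early response gene, had 52.0, 47.1, 160.3 and 215 CPM (1.91, SE 0.26). Without the highest cell of each library Mdk had 119, 112, 398 and 275 CPM and Ier3 had 45.0, 37.8, 127 and 155 CPM, with no overlap. In droplets with few UMIs Mdk had 41.7, 25.8, 175 and 226 CPM and Ier3 had 102, 73.4, 491 and 607 CPM, so free RNA of both genes was also higher in Z/Z. Free RNA was compared for 36 genes followed one by one between genotypes. It separated the genotypes in the same direction as the selected cells for 25, in the opposite direction for 3, and overlapped for 8. Some of the 36 genes were chosen after their values were seen, and the share over all genes was not counted. The part of free RNA in these differences was not tested.

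Lists of basal and age-associated epithelium held more genes that were higher in the Z/Z cells, none of which passed the threshold. Of 16 basal and mTEC1 genes 11 were higher (median 0.69), of 7 tested markers of age-associated epithelium all 7 (median 0.88), and of 6 epithelial identity genes all 6 (median 0.49). Itgb4, an integrin of basal cells, had 33.7, 28, 84.9 and 90.0 CPM (1.48, SE 0.25, unadjusted p = 0.00142 and adjusted p = 0.349 in edgeR). Krt14, a keratin of medullary cells, had 171, 197, 285 and 316 CPM (0.71, SE 0.21) and Vim, an intermediate filament of mesenchyme, had 173, 214, 309 and 405 CPM (0.89, SE 0.24). Each was higher in both Z/Z libraries. Free RNA of these lists was higher in Z/Z as well, with a summed level in droplets with few UMIs of 2236, 1391, 3413 and 4325 CPM for the basal and mTEC1 list and 969, 627, 2092 and 2489 CPM for the age-associated list. Ccl21a, the mTEC1 chemokine, had 476, 114, 847 and 1079.8 CPM (1.68, SE 0.63), and Pdpn had 17.9, 2.54, 56.3 and 109 CPM (2.76, SE 0.71). Pdpn in the other Epcam cells was also higher in Z/Z (152, 126, 472 and 395 CPM on the scale of the class comparison), and its free RNA had 116, 79.2, 279 and 232 CPM. Among tissue-restricted genes, Csn2 had 773, 864, 383 and 609.5 CPM (-0.72, SE 0.28) and Syt1 had 2635, 2739, 1705 and 1607 CPM (-0.70, SE 0.19). Both were lower in each Z/Z library without passing, but the antigen lists differed in direction. Higher in Z/Z were 4 of 9 tested pancreas genes, 7 of 9 liver genes (median 0.26) and 1 of 8 mammary and salivary genes (median -0.90). The same held for 9 of 17 gut genes and 4 of 8 eye and neural genes.

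**Figure D5:**
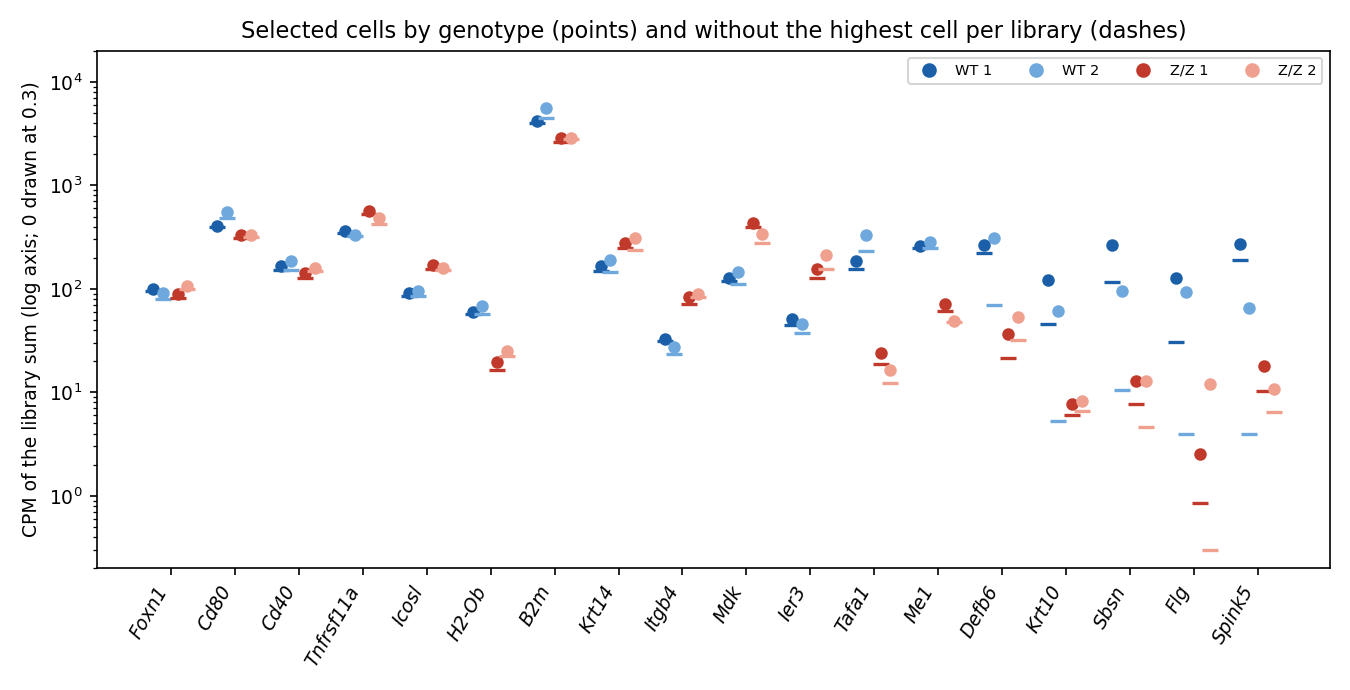
Level of 18 genes in the UMI sums of the selected cells of each library, in CPM without TMM scaling on a log axis with 0 drawn at 0.3 (points), and the same without the library's highest cell (dashes). Mdk and Ier3 lie higher and Me1 and Tafa1 lower in both Z/Z libraries with or without that cell, while Krt10 and Spink5 of WT 2 drop to the Z/Z range without it.

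Whether a genotype difference of the selected cells departed from that of the other Epcam cells was tested by the interaction of genotype and class in edgeR. Of 14441 genes tested, 5 passed an adjusted p of 0.05 (0.0346%), namely Spink1, Sgcz, Ccl5, Reg3b and Spock3, and each was lower in the other Epcam cells of both Z/Z libraries than of both WT libraries. Ccl5 is a chemokine and Reg3b an antibacterial lectin of the gut. The term was positive for all 5, and at an unadjusted p under 0.05 there were 1303 genes. Spink1, Reg3b and Spock3 were at or near 0 in the other Epcam cells of Z/Z, so their calls are a description. The count depended on the libraries, with 1 positive and 1 negative gene without WT 1, 88 and 18 without WT 2, 135 and 18 when Z/Z 1 was left out, 59 and 6 when Z/Z 2 was, and 277 and 30 without shared barcodes. No keratinocyte gene, MHC gene or RANK pathway gene was among the 5.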

How the data were processed

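Droplet single-cell 3' RNA-seq of CD45- thymic stroma gave 4 libraries, 2 per genotype. The UMI counts per gene and barcode were deposited by the authors as made with Cell Ranger 7.01 (per the submitters' processing notes, mm10). The headers of the unfiltered matrices name Cell Ranger 4, but their counts were identical to the filtered ones for every called barcode. The sources used here do not say whether intronic reads were counted, which would raise counts of long genes. Cells with more than 1000 genes and under 20% mitochondrial UMIs were kept. The 100 ribosomal protein and haemoglobin features of 32285 were left out, as in the study. Selected and other Epcam cells were summed per library, and the sums tested with edgeR 4.0.16 (filterByExpr, TMM, quasi-likelihood F test, R 4.3.3) and Benjamini-Hochberg adjustment over all genes tested, with an adjusted p under 0.05 as the threshold. The genes of the selection rule were not tested. DESeq2 1.42.0 was an alternative, and an adjusted p that it gave as missing stayed missing. The scripts were tested on simulated data. Other steps used Python 3.11.15, numpy 2.4.6, scipy 1.17.1 and scanpy 1.11.5. No doublets were removed; the 3.9% of cells with the highest doublet score in each library, the multiplet rate per the labels, were left out as an alternative. Thinning drew 4000 UMIs per cell without replacement. Libraries held 8468086 to 50705511 UMIs in called cells, and intervals cover counting error only.

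The named genes were the 12 highest and 12 lowest log2 fold changes past the threshold with a mean of at least 50 CPM and the same direction in every library, plus examples from the gene lists. In the comparison of genotypes no gene passed, so genes with the lowest unadjusted p were named instead, chosen after their values were seen. The members and lists were chosen with earlier results of these data known. The alternatives that keep shared barcodes once, that leave them out of the comparisons with other Epcam cells, and that drop the exclusion genes from the rule were chosen after seeing the data. A few genes of the lists are not reported here by name.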

Additional observations from a re-analysis of the deposited data

Results flagged for a closer look

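The difference between genotypes departed from that of the other Epcam cells for 5 genes, by the interaction term in edgeR's quasi-likelihood F test (adjusted p from 0.0161 to 0.0433). Values are CPM in the order WT 1, WT 2, Z/Z 1, Z/Z 2. Sgcz, a sarcoglycan of muscle, had 26.0, 35.2, 11.5 and 19.0 CPM in the selected cells and 635, 743, 4.38 and 3.56 CPM in the others (6.44, SE 0.44). Spock3, a secreted proteoglycan of the brain, had 345, 551, 309.7 and 211 CPM against 50.4, 46.6, 0.973 and 0.791 CPM (5.03, SE 0.42). Ccl5, a chemokine that attracts T cells, had 190.1, 724, 115 and 311 CPM against 103, 496, 4.96 and 11.1 CPM (3.96, SE 0.30). In these 3 genes the selected cells differed less between genotypes than the other Epcam cells did. Reg3b had 7.28, 0, 0 and 69.4 CPM against 122, 4.66, 0 and 0 CPM (13.8, SE 0.87). Spink1, a trypsin inhibitor of the pancreas, had 153, 12.1, 4.10 and 159 CPM against 242, 15.5, 0 and 0.264 CPM (9.46, SE 0.52). The libraries of each genotype differed widely for Reg3b and Spink1, and the fitted value of Reg3b depends on groups at 0. Spink1 and Spock3 were also at or near 0 in the other Epcam cells of Z/Z, and Sgcz was low there. Such genes passed the filter on low counts through the remaining groups, so their terms and p-values are a description. Whether the make-up of the other Epcam cells differed between genotypes was not tested.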

How the results depend on the processing

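Within the selected cells, the count of 0 genes between genotypes became 29 higher and 58 lower with DESeq2, and 318 and 495 with no filter on low counts. Leaving out a library, thinning and the other alternatives run with edgeR and the filter gave 0. The replicate numbers do not pair the libraries: deviations of same-numbered libraries correlated at -0.072, and with the replicate number as a block 0 genes were called (1109 at an unadjusted p under 0.05).

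Against other Epcam cells, leaving out a library gave 1411 to 2263 genes higher and 1213 to 1960 lower, thinning 1043 and 982, and leaving out shared barcodes 1221 higher. Of 85 genes followed one by one in this comparison, each kept its direction wherever it could be tested, and the most calls were lost without Z/Z 2 (13 of 83), then without Z/Z 1 (7 of 85) and without shared barcodes (7 of 77). For the interaction, leaving out a library gave 1 to 135 positive and 1 to 18 negative genes, no filter 525 and 203, thinning 193 and 8, and leaving out shared barcodes 277 and 30. The causes were not tested.

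The direction between genotypes reversed for Foxn1 (-0.0091 without WT 2 and -0.10 without Z/Z 2, over a range of -0.10 to 0.13 when a library was left out; -0.17 without shared barcodes and -0.42 without the exclusion genes), for Cd40 (0.11) and Ube2c (-0.31) without shared barcodes, and for Spink5 (0.31) and Grhl1 (0.070) at 2 or more Aire UMIs. The difference in share kept its sign in every alternative, from -38.3 to -22.5 percentage points. Depth limits the rare antigen genes and WT 2, which had 26 selected cells.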
